A study of Homo sapiens with 10 samples.

Results

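Cells take up amino acids through families of membrane transporters, and they answer a shortage of amino acids or stress in the endoplasmic reticulum through ATF4, a transcription factor. The kinases GCN2 (gene EIF2AK4), which senses uncharged tRNA, and PERK (EIF2AK3), which senses misfolded protein, phosphorylate the translation factor eIF2, and ATF4 protein is then made from an mRNA that is already present. ATF4 in turn switches on transporters, amino acid enzymes and further stress factors such as CHOP (DDIT3). MYC is known to raise the transcription of several of the same transporters in tumour cells.

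The genes described here were taken by gene symbol from a list that was chosen with earlier results of these data known. They are 21 amino acid transporters and 19 genes of the ATF4 pathway, 40 in all. Of these, 38 had a probe set in the table of 17492 genes, all 21 transporters and 17 ATF4 pathway genes, each with 1 probe set. ATF5 and GPT2 were not analysed here.

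The tumours were grown under the skin of BALB/c nude mice, which lack a thymus and hence most T cells, from the human melanoma line A375. One group of mice drank doxycycline from a tumour volume of 100 mm3 on, which induced Omomyc, a dominant negative form of MYC, in the tumour cells, and the other group drank the vehicle. Tumours were taken after 7 days, and each of the 5 doxycycline and 5 vehicle tumours, labelled as biological replicates, was put on 1 Affymetrix array. Nothing in the labels says whether each came from its own mouse, so p-values measure the spread between these samples. No tumours given doxycycline without Omomyc are part of the design, so that Omomyc and doxycycline itself cannot be told apart. The vector, the clonality of the line and the age of the mice are not given in the labels.

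All values are log2 expression, and a change is the doxycycline mean minus the vehicle mean, so that 1 unit is a doubling. Array medians lay between 5.45 and 5.56, and pairs of arrays correlated at 0.979 to 0.987 (vehicle) and 0.965 to 0.985 (doxycycline). The MYC probe set rose by 1.34 (limma, adjusted p = 0.000348). The sources used here do not say whether it also reads Omomyc transcripts, so these and the cells' own MYC cannot be told apart in it. Of the melanocyte markers, SOX10 stood at 7.19 to 7.60 and S100B at 5.90 to 6.35 in the vehicle tumours. In doxycycline tumours 1 to 4 they stood at 7.45 to 7.85 and at 7.21 to 7.48, and in doxycycline tumour 5 at 6.49 and 5.06, lower than in any other tumour. S100A1 was also lowest in doxycycline tumour 5, at 5.38. By contrast MITF, at 5.99, and TYRP1, at 2.58, were there the highest of the doxycycline group, and MLANA, PMEL and TYR lay within the range of that group. In the vehicle tumours, the pigment genes MLANA, PMEL, TYR and TYRP1 averaged 3.12, 3.23, 3.00 and 2.31, below the median of every array. In tumour tissue, fewer cells of a type and less RNA per cell cannot be told apart.

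Doxycycline-treated tumours had lower transcript levels of several amino acid transporter genes. Most genes of both groups, 14 of 21 transporters and 14 of 17 ATF4 pathway genes, did not pass the test. Of 21 transporters 6 fell and 1 rose, and of 17 ATF4 pathway genes 2 fell and 1 rose. The largest falls were those of the glutamate transporter gene SLC1A3, 3.59-fold, of SLC7A5, which encodes the leucine carrier LAT1, 3.23-fold, of the leucine-degrading transaminase gene BCAT1, 2.50-fold, and of the arginine transporter gene SLC7A1, 2.42-fold. The rises were those of SLC43A2, a neutral amino acid carrier gene, 1.95-fold, and of EIF2AK4, which encodes GCN2, 1.49-fold.

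These counts come from a limma fit over all 17492 genes with Benjamini-Hochberg adjustment and a threshold of 0.05. In that fit 11.0% of all genes passed, 5.95% lower and 5.03% higher, against 10 of the 38 genes described here (26.3%), 8 of them lower and 2 higher. The groups did not overlap for 12 of the 38, 8 below and 4 above, where 11.8% of all genes had no overlap (6.43% below and 5.38% above). With a minimum change of 1.5-fold as well, 9 of the 38 passed, against 8.14% of all genes. Among transporters the share past the threshold was 33.3%, and among ATF4 pathway genes 17.6%. Of the 38 genes only 5 were among the dimmest 30% of all genes, so the share over all genes rests on more dim genes. Without that 30%, 2307 of 12244 genes passed. Among the 33 of the 38 that remained, 8 transporters and 2 ATF4 pathway genes were then lower, and 2 of each were higher. The list was not chosen blind to these data. The median change was -0.24 for the transporters and -0.03 for the ATF4 pathway genes, beside 0.02 for all genes. Among the transporters 15 changes were below 0 and 6 above, and among the ATF4 pathway genes 10 were below and 7 above.

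**Figure D1:**
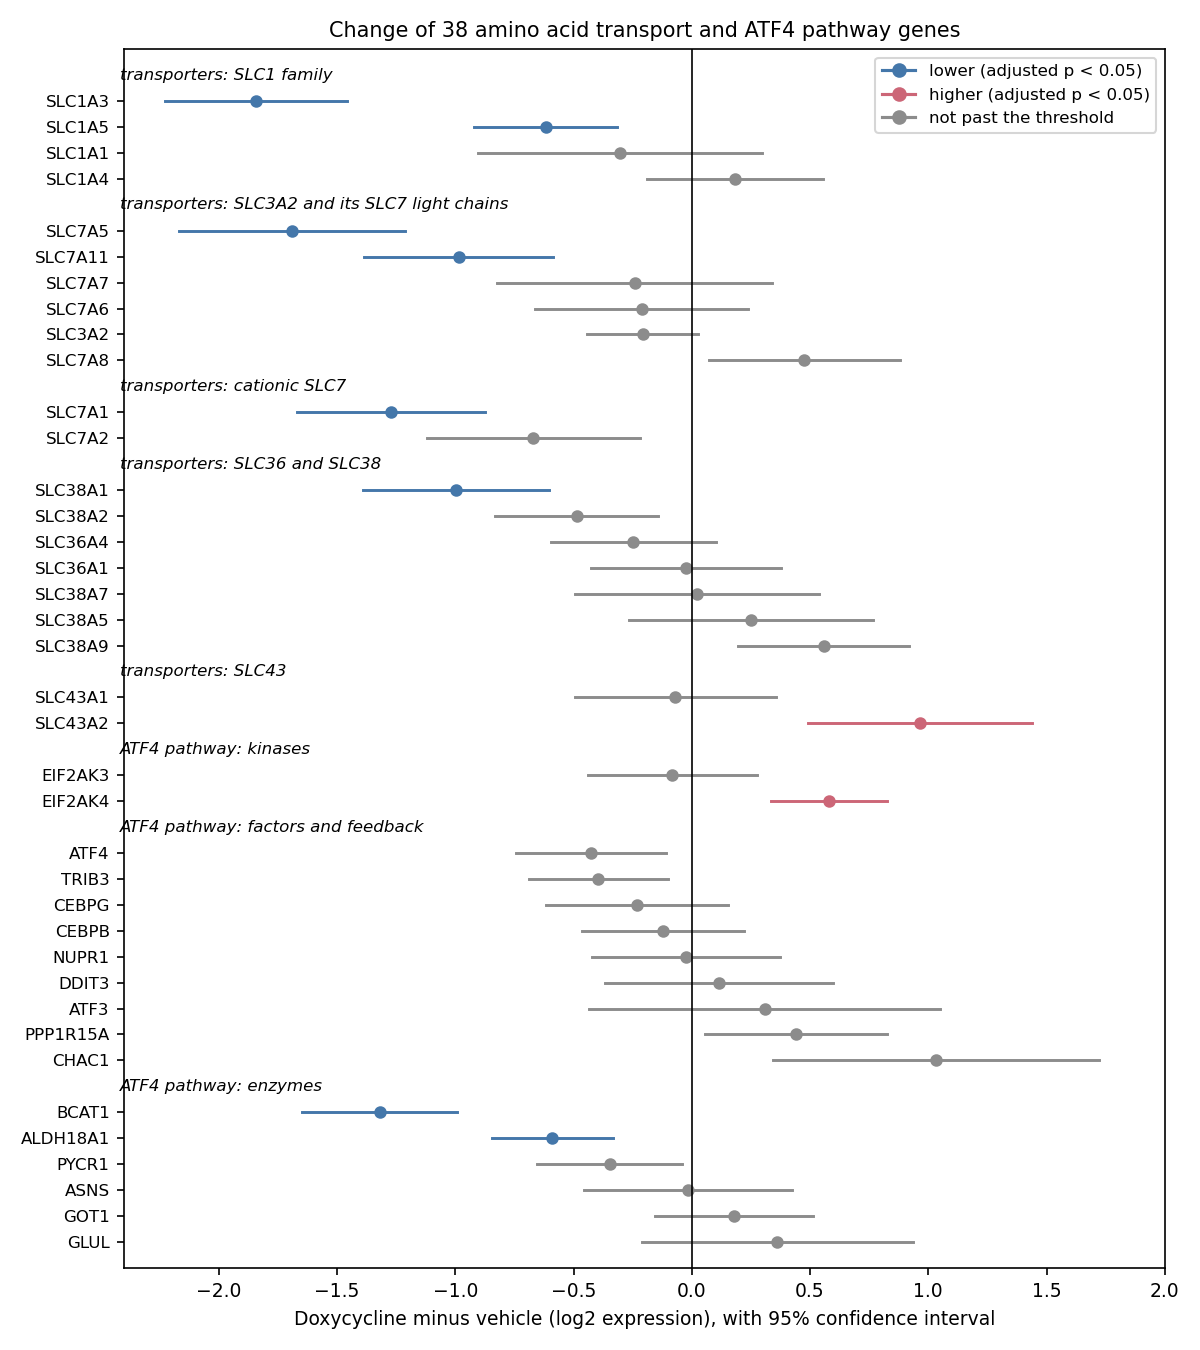
Change of each of the 38 measured genes, doxycycline minus vehicle in log2 expression (points), with the 95% confidence interval of the limma fit (lines), grouped by role. The 8 genes that passed the threshold as lower are blue, the 2 that passed as higher are red, and the 28 others are grey.

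The promoters of these genes are shown for the motifs that bear on both factors, since some genes with a motif fell and others did not pass the threshold. RefSeq windows (build GRCh38.p14) from 250 bases before to 50 bases after the transcription start were searched on both strands for TGATGNAAN, a core of the C/EBP-ATF response element that ATF4 binds, and for the E-box CACGTG, which MYC and MAX bind and which reads the same on both strands. The letters of both motifs can share bases where they adjoin, but in the windows of BCAT1, which hold both, they lie apart. At least 1 window was found for 34 of the 38 measured genes, 68 windows in all. The C/EBP-ATF core was present in 12 of these 68 windows (17.6%) and in 2.68% of the 19911 windows of all genes on the array. The E-box was present in 12 of the 68 (17.6%) and in 8.22% of all windows. The ATF4 windows among these overlap and hold the same site, so that 11 genes had an E-box. Many of the genes are listed here because they are known ATF4 targets, so the first share is a description of the list. A match is a stretch of letters and not a measured binding site, and the array does not tell which start was used.

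Stretches with the C/EBP-ATF core (capitals) upstream of a start are shown first for 3 genes that fell, SLC1A3, SLC1A5 and BCAT1, and then for 5 that did not pass the threshold. They run 5′ to 3′ on the strand of the gene, and in GOT1 and CHAC1 the capitals hold the core on the opposite strand.
SLC1A3, chr5:36596338-36596417, plus strand: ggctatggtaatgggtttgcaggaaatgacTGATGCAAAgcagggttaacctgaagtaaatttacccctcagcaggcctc
SLC1A5, chr19:46784893-46784921, minus strand: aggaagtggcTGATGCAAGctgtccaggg
BCAT1, chr12:24949131-24949159, minus strand: gtcttcctgcTGATGCAATccgctaggtc
ASNS, chr7:97872432-97872511, minus strand: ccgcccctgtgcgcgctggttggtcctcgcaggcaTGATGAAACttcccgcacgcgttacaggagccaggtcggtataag
CHAC1, chr15:40953226-40953305, plus strand: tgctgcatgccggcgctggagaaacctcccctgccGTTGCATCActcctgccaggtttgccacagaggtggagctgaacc
CEBPG, chr19:33374061-33374089, plus strand: gcgcggcgtcTGATGCAACctgccggcaa
ATF3, chr1:212565181-212565260, plus strand: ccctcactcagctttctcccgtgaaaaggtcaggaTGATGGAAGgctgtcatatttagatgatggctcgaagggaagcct
GOT1, chr10:99430779-99430858, minus strand: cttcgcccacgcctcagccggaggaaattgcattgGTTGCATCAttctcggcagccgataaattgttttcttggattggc

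The E-box (capitals) is shown for 3 genes that fell, SLC7A5, SLC1A5 and ALDH18A1, and for ATF4, which did not pass the threshold. SLC36A1, SLC43A1, SLC7A7, SLC7A8 and SLC38A5, which did not pass either, also had an E-box upstream of a start and are not shown.
SLC7A5, chr16:87869593-87869672, minus strand: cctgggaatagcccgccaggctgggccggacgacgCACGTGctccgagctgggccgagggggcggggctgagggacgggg
SLC1A5, chr19:46787328-46787353, minus strand: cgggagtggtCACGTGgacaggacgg
ALDH18A1, chr10:95656803-95656882, minus strand: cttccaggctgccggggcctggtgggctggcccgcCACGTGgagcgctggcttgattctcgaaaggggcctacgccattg
ATF4, chr22:39520442-39520521, plus strand: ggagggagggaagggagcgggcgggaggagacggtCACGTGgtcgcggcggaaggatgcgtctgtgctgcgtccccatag

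Of the 7 lower genes with a window, 5 had the C/EBP-ATF core (SLC1A3, SLC1A5, SLC7A1, SLC38A1 and BCAT1) and 4 had an E-box (SLC1A5, SLC7A5, BCAT1 and ALDH18A1). Of the 25 genes with a window that did not pass, 7 had the core and 7 had an E-box, and of the 2 that rose 0 had either. In SLC7A1 the core lies after the start, from base 8 to base 16, and in SLC38A1 it spans the start. Of all 14129 array genes with a window, 3.59% had the core and 10.8% an E-box. Those genes had 19911 windows and the 34 genes here had 68, which is more windows per gene. These counts are a description of the windows.

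Transporters of the SLC1 family carry glutamate and aspartate (SLC1A1, SLC1A3) or exchange small neutral amino acids such as serine and glutamine (SLC1A4, SLC1A5). SLC1A3 had the smallest p of all 38 genes. It stood at 7.50, 7.51, 7.52, 7.41 and 7.66 in vehicle tumours 1 to 5 and at 5.09, 5.92, 5.42, 6.02 and 5.93 in doxycycline tumours 1 to 5. Every doxycycline tumour lay more than 1 unit below every vehicle tumour, and the fall was 1.84 (95% CI -2.23 to -1.46, limma, adjusted p = 7.67e-05).

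SLC1A5, the glutamine exchanger gene, read 8.35, 7.83, 7.95, 7.91 and 7.99 in the vehicle group and 7.70, 7.23, 7.42, 7.37 and 7.21 in the doxycycline group. The groups were close but did not overlap, and the fall was 0.62 (95% CI -0.92 to -0.31, adjusted p = 0.0137). Without doxycycline arrays 4 and 5 its fall was 0.55 and missed the threshold (adjusted p = 0.0559). SLC1A1 and SLC1A4 differed by -0.30 and 0.18 (adjusted p = 0.562 and 0.572), and both were among the dimmest 30% of all genes. The change of SLC1A3 differed from that of SLC1A1 by -1.54 within arrays (exact two-sided permutation test over 252 splits of the arrays, p = 0.00794, the smallest these can give; adjusted p = 0.0136 over the 12 pairs of genes compared in this way, which were chosen after the values were seen). The same contrast of SLC1A5 with SLC1A4 was -0.80 (exact permutation test, adjusted p = 0.0357). Each of the 12 pairs sets a gene that passed against a gene that did not. A difference was thus partly built in, here and below, and the adjustment does not correct for this choice.

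SLC3A2 encodes CD98hc, the heavy chain that carries several SLC7 light chains to the cell surface, among them LAT1 (SLC7A5), LAT2 (SLC7A8) and the cystine-glutamate exchanger xCT (SLC7A11). SLC7A5 was at 8.19, 7.27, 7.64, 7.53 and 8.15 in vehicle tumours and at 5.75, 6.27, 6.05, 5.67 and 6.58 in doxycycline tumours. The lowest vehicle tumour lay above the highest doxycycline tumour, and the fall was 1.69 (95% CI -2.17 to -1.21, limma, adjusted p = 0.000538). SLC7A11 was at 6.41, 6.38, 6.59, 6.63 and 5.84 in vehicle and at 5.58, 5.05, 5.67, 5.55 and 5.07 in doxycycline tumours, again without overlap. Vehicle tumour 5 was the lowest of its group, and the fall was 0.99 (95% CI -1.39 to -0.59, adjusted p = 0.00481).

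The heavy chain gene did not pass the threshold. SLC3A2 differed by -0.21 (95% CI -0.44 to 0.03, adjusted p = 0.266), with 8.77 to 9.04 in vehicle and 8.55 to 8.80 in doxycycline tumours. Within arrays, the change of SLC7A5 was lower than that of SLC3A2 by 1.48 (exact permutation test, adjusted p = 0.0136). For SLC7A11 against SLC3A2 the difference was -0.78 (exact permutation test, adjusted p = 0.0423).

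The other light chains did not pass the threshold. SLC7A8 differed by 0.48 (95% CI 0.07 to 0.88, adjusted p = 0.133), SLC7A6 by -0.21 and SLC7A7 by -0.24. SLC7A6 and SLC7A7 encode the light chains of exchangers of cationic for neutral amino acids, and SLC7A7 was among the dimmest 30% of genes. The change of SLC7A5 lay below that of SLC7A8 by 2.17, the widest of the 12 gaps compared, and below that of SLC7A6 by 1.48 (exact permutation test, adjusted p = 0.0136 for both).

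SLC7A1 and SLC7A2 encode the cationic transporters CAT1 and CAT2, which import arginine and lysine without a heavy chain. SLC7A1 was at 8.12, 7.69, 8.07, 7.75 and 8.18 in vehicle tumours and at 6.21, 6.77, 6.96, 6.42 and 7.09 in doxycycline tumours. No doxycycline tumour reached the vehicle range, and the fall was 1.27 (95% CI -1.67 to -0.88, limma, adjusted p = 0.00104). SLC7A2 differed by -0.67 (95% CI -1.12 to -0.22) and missed the threshold (adjusted p = 0.0585), since doxycycline tumours 2 and 5, at 5.26 and 5.39, overlapped the vehicle range of 5.20 to 5.78. Without doxycycline array 2 or 5 SLC7A2 passed (adjusted p = 0.0434 and 0.0208), but in 19 of the 23 alternatives described below it did not.

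Among the sodium-coupled SLC38 carriers, SLC38A1 takes up glutamine and other small neutral amino acids, and SLC38A2 is the member known to be induced by amino acid starvation. SLC38A1 was at 7.89, 7.85, 7.85, 8.18 and 7.87 in vehicle and at 6.66, 7.02, 7.09, 6.43 and 7.46 in doxycycline tumours. It fell by 1.00 (95% CI -1.39 to -0.60, adjusted p = 0.00408), doxycycline tumour 5 being nearest to the vehicle group. SLC38A2 differed by -0.49 (95% CI -0.83 to -0.14, adjusted p = 0.0711), with doxycycline tumour 3, at 8.98, inside the vehicle range of 8.76 to 9.18. It passed without that array (adjusted p = 0.023), but in 19 of the 23 alternatives it did not. The changes of SLC38A1 and SLC38A2 differed by -0.51 (exact permutation test, adjusted p = 0.0714).

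SLC38A9, a carrier of the lysosomal membrane that reports lysosomal arginine to the growth kinase complex mTORC1, pointed the other way. It was at 6.23, 5.32, 5.79, 5.74 and 6.16 in vehicle tumours and at 6.33, 6.49, 6.52, 6.42 and 6.28 in doxycycline tumours. The groups did not overlap, but the wide vehicle spread (SD 0.37 against 0.10) left the difference of 0.56 just outside the threshold (95% CI 0.20 to 0.92, adjusted p = 0.0511). It passed without vehicle array 1 or 5 (adjusted p = 0.0338 and 0.0405), but in 16 of the 23 alternatives it did not. SLC36A1, SLC36A4, SLC38A5 and SLC38A7, carriers of small or neutral amino acids, differed by -0.02, -0.25, 0.25 and 0.02 and did not pass (adjusted p = 0.961, 0.385, 0.577 and 0.971). The last 2 were among the dimmest 30% of genes.

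SLC43A1 and SLC43A2 encode LAT3 and LAT4, carriers of leucine and other large neutral amino acids that work without sodium or a heavy chain. SLC43A2 was at 5.67, 6.08, 5.26, 5.68 and 6.06 in vehicle and at 6.45, 6.36, 6.42, 7.12 and 7.23 in doxycycline tumours. All doxycycline tumours lay above the vehicle group, with tumours 4 and 5 highest, and the rise was 0.97 (95% CI 0.49 to 1.44, limma, adjusted p = 0.0136). It was 0.66 and missed the threshold without doxycycline arrays 4 and 5 (adjusted p = 0.054), and it missed the threshold with an unmoderated test of unequal variances (adjusted p = 0.0547). SLC43A1 differed by -0.07 (adjusted p = 0.879), and the changes of these carriers differed by 1.03 (exact permutation test, adjusted p = 0.0136).

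**Figure D2:**
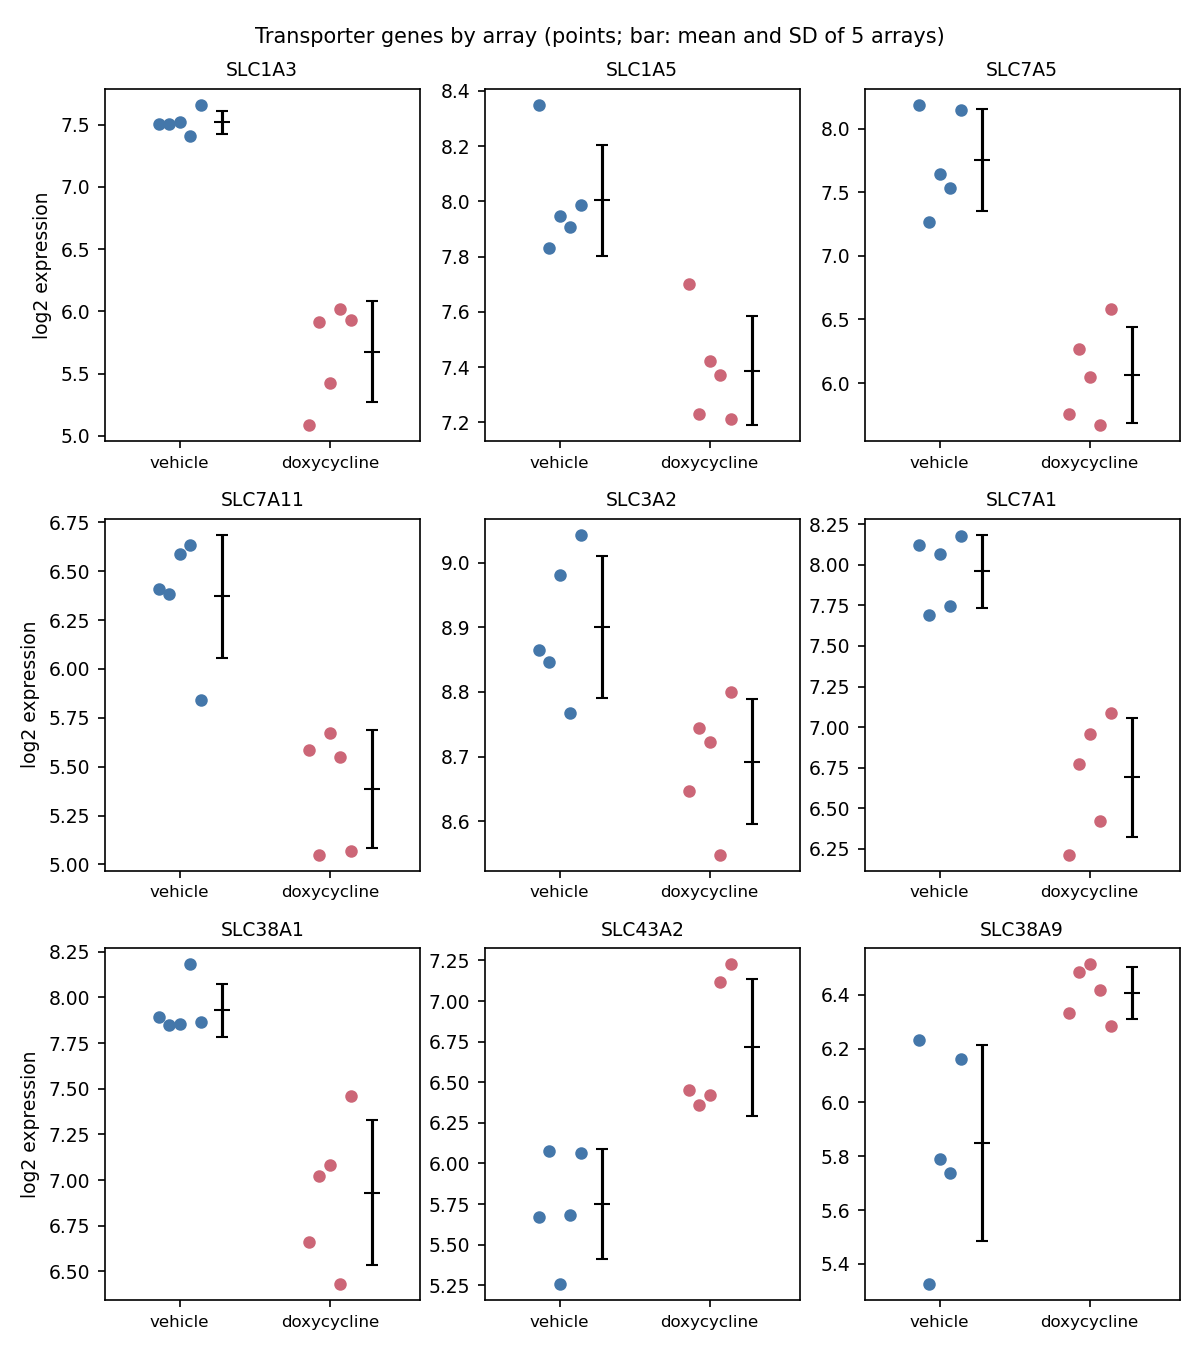
Log2 expression of 9 transporter genes in each of the 5 vehicle (blue) and 5 doxycycline (red) tumours, with the mean and SD of each group as a black bar and axes that do not start at 0. The 6 genes that fell, such as SLC1A3 (7.41 to 7.66 against 5.09 to 6.02), show no overlap, SLC3A2 overlaps, and SLC43A2 and SLC38A9 lie higher in every doxycycline tumour.

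In the ATF4 pathway, the kinase gene EIF2AK4 rose while EIF2AK3 did not pass. EIF2AK4 was at 7.70, 7.53, 7.78, 7.85 and 7.74 in vehicle tumours and at 8.26, 8.16, 8.45, 8.37 and 8.24 in doxycycline tumours. The spread was small in both groups (SD 0.12 each), and the rise was 0.58 (95% CI 0.34 to 0.82, limma, adjusted p = 0.00593), or 1.49-fold. EIF2AK3 differed by -0.08 (95% CI -0.44 to 0.27, adjusted p = 0.819), with doxycycline tumour 1 lowest at 5.24 and the other doxycycline tumours at 5.90 to 6.11. The changes of both kinase genes differed by 0.66 (exact permutation test, adjusted p = 0.0136).

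None of the 9 transcription factor and feedback genes passed the threshold with limma, and 4 of them had an unadjusted p under 0.05 (ATF4, TRIB3, CHAC1 and PPP1R15A). The unmoderated test also called 0 of the 9, and limma with a trended prior variance called 2, ATF4 and CHAC1 (adjusted p = 0.0276 and 0.0286). ATF4 itself was at 9.01, 9.12, 8.93, 8.54 and 8.75 in vehicle tumours and at 8.63, 8.59, 8.46, 8.12 and 8.43 in doxycycline tumours. The groups overlapped through vehicle tumour 4, and the difference was -0.43 (95% CI -0.74 to -0.11, adjusted p = 0.0851). Since ATF4 is controlled largely in translation, its transcript level does not give the level of the protein. TRIB3, a pseudokinase gene that ATF4 induces and that restrains it, differed by -0.40 (95% CI -0.69 to -0.10, adjusted p = 0.0843). Its highest doxycycline value, 6.12, lay above the lowest vehicle value, 6.03.

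CHAC1, which encodes a glutathione-degrading enzyme and is a sensitive ATF4 target, pointed upward. It was at 4.65, 5.33, 5.54, 3.71 and 5.36 in vehicle tumours and at 5.67, 6.13, 5.55, 5.99 and 6.42 in doxycycline tumours. Vehicle tumour 3 almost touched doxycycline tumour 3, vehicle tumour 4 was far below its group, and the difference of 1.03 missed the threshold (95% CI 0.34 to 1.72, adjusted p = 0.0568). It passed without vehicle array 3 (adjusted p = 0.046), but in 19 of the 23 alternatives it did not. PPP1R15A, which encodes GADD34, the phosphatase subunit that reverses eIF2 phosphorylation, differed by 0.44 (95% CI 0.06 to 0.83, adjusted p = 0.143).

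DDIT3, which encodes the stress factor CHOP, ATF3, CEBPB, CEBPG and NUPR1 differed by 0.11, 0.31, -0.12, -0.23 and -0.03 (adjusted p = 0.813, 0.646, 0.705, 0.477 and 0.956). ATF3 varied most among them, from 4.57 to 6.52 in doxycycline tumours, where tumours 4 and 5 were highest, and from 4.82 to 5.95 in vehicle tumours. DDIT3 was below 6.30 in vehicle tumours 4 and 5 and in doxycycline tumour 1, and its groups overlapped. The intervals leave room for change in either direction, -0.37 to 0.60 for DDIT3 and -0.43 to 1.05 for ATF3.

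Of the enzymes, BCAT1 and ALDH18A1 fell, and ASNS, PYCR1, GLUL and GOT1 did not pass. BCAT1, which moves the amino group of leucine, isoleucine and valine to glutamate, was at 8.62, 8.57, 8.76, 8.62 and 8.85 in vehicle tumours and at 7.03, 7.51, 7.77, 7.41 and 7.09 in doxycycline tumours. The groups lay well apart, and the fall was 1.32 (95% CI -1.65 to -0.99, limma, adjusted p = 0.000233). ALDH18A1, which encodes the enzyme for the first step from glutamate to proline, was at 8.72, 8.46, 8.87, 8.69 and 8.81 in vehicle and at 8.26, 8.12, 8.08, 7.95 and 8.18 in doxycycline tumours. It fell by 0.59 (95% CI -0.85 to -0.33, adjusted p = 0.00683), without overlap.

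PYCR1, which completes proline synthesis, differed by -0.35 (95% CI -0.66 to -0.04, adjusted p = 0.149). Doxycycline tumour 4, at 6.25, lay within its vehicle range of 5.94 to 6.48. The changes of ALDH18A1 and PYCR1 differed by -0.24 (exact permutation test, adjusted p = 0.0519). ASNS, the asparagine synthetase gene and a standard reporter of ATF4 activity, differed by -0.02 (95% CI -0.46 to 0.42, adjusted p = 0.977). It was at 6.48 to 6.92 in vehicle tumours, at 7.12, 6.74 and 7.03 in doxycycline tumours 1 to 3 and at 6.23 and 6.11 in tumours 4 and 5. Doxycycline tumours 1 and 3 thus lay above the whole vehicle group and tumours 4 and 5 below it. The change of BCAT1 lay below that of ASNS by 1.30 (exact permutation test, adjusted p = 0.0136). GLUL, glutamine synthetase, and GOT1, aspartate transaminase, differed by 0.36 and 0.18 (adjusted p = 0.448 and 0.538).

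**Figure D3:**
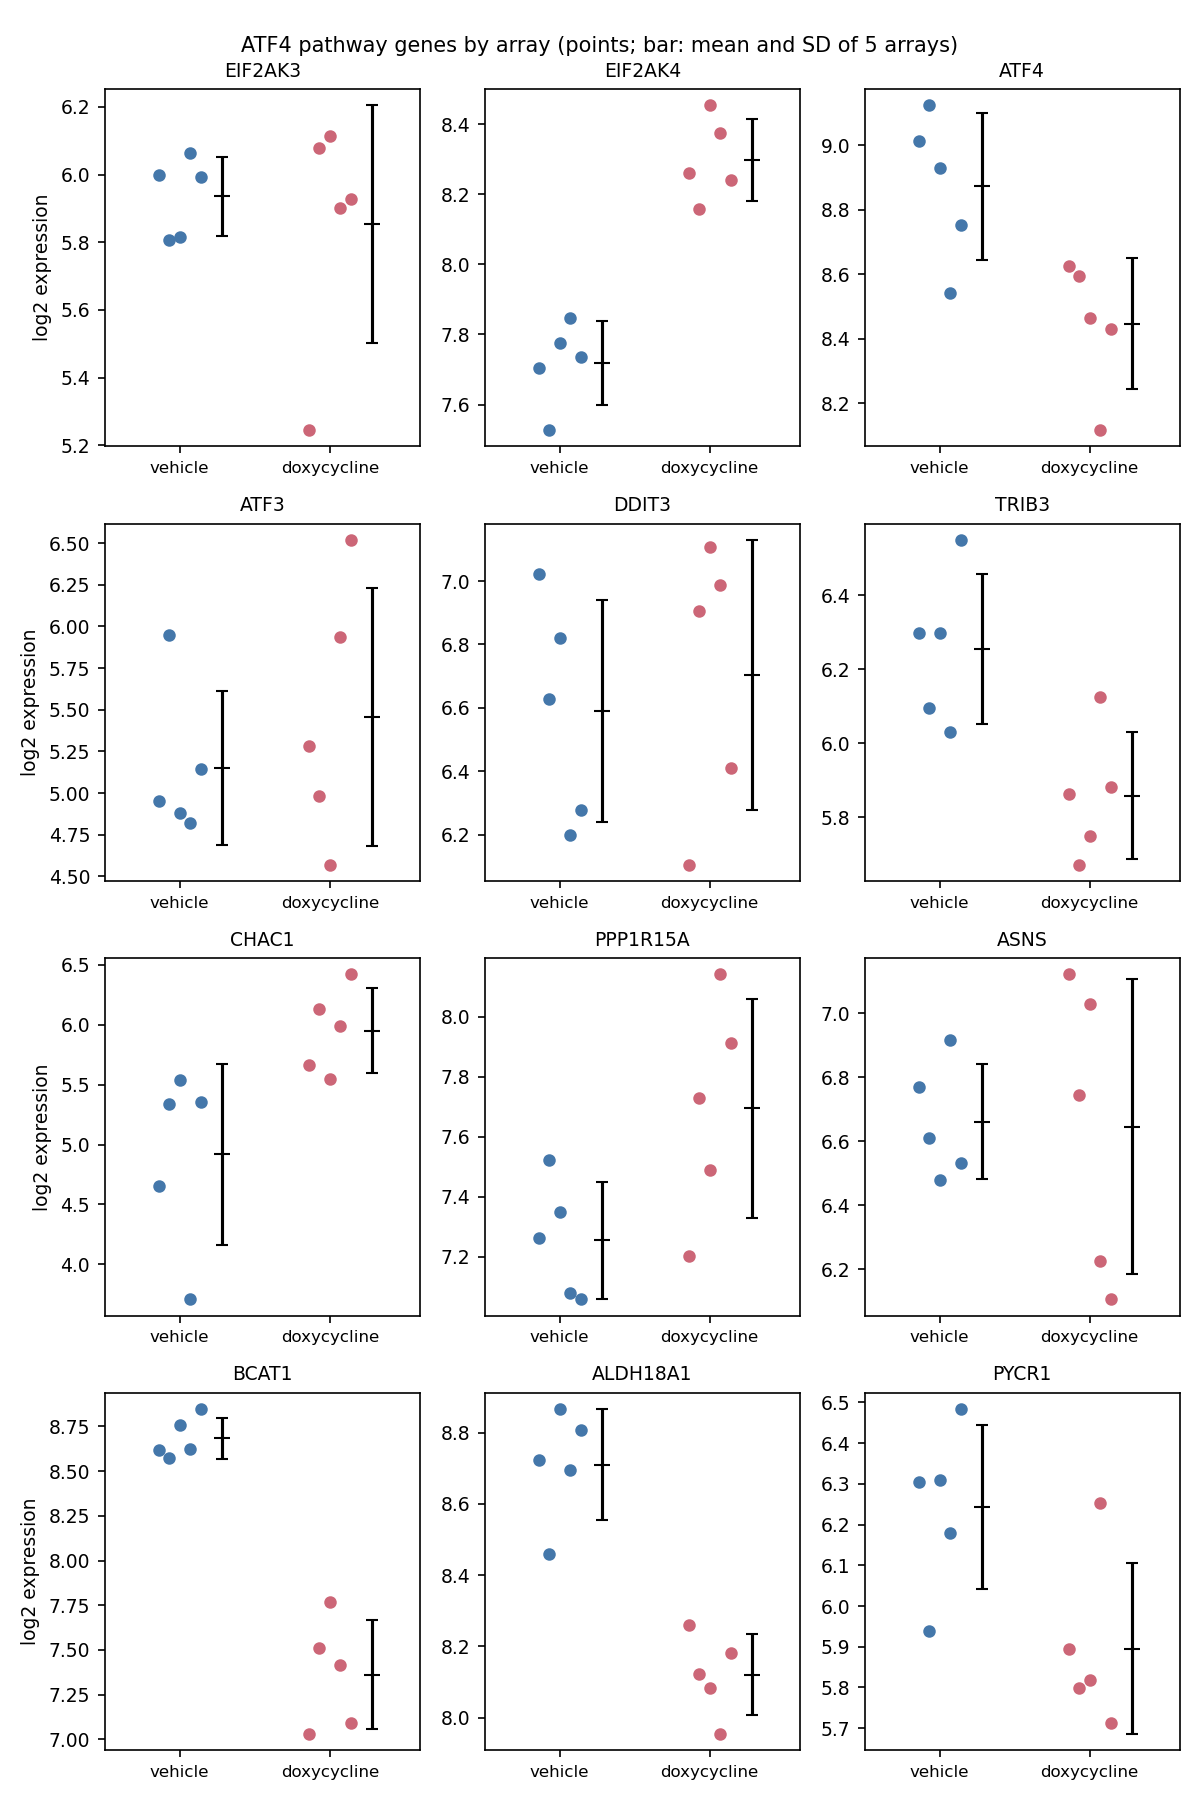
Log2 expression of 12 ATF4 pathway genes in each of the 5 vehicle (blue) and 5 doxycycline (red) tumours, with the mean and SD of each group as a black bar and axes that do not start at 0. EIF2AK4 is higher and BCAT1 and ALDH18A1 are lower in every doxycycline tumour, CHAC1 is higher by a narrow margin, and the other genes overlap.

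Doxycycline arrays 4 and 5, whose mean correlations with the rest of their group were 0.973 and 0.967, took the same side in a number of these genes. Within the doxycycline group they were the highest pair for SLC1A3, SLC43A2, ATF3, TRIB3, PPP1R15A and GOT1 and the lowest pair for SLC1A1, SLC36A1, SLC38A2, ATF4, ASNS and CEBPG. These pairs made up 31.6% of the 38 genes, near the 29.9% of all genes for which these arrays formed the highest or lowest pair. Tumour 5, the one with low SOX10 and S100B but the highest MITF of the doxycycline group, also had the highest mean of macrophage markers, 4.84. All 10 called genes kept their calls without tumour 5. The 8 genes that fell lay below every vehicle tumour in each of the 5 doxycycline tumours, with a mean change over these genes of -1.33, -1.13, -1.06, -1.26 and -1.04 in tumours 1 to 5.

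Beyond these genes, 32 other known ATF4 targets were measured, and 9 fell and 4 rose, with a median change of -0.15. The 4 with the smallest p all fell. MTHFD2, a mitochondrial folate enzyme gene, fell by 1.85 (limma, adjusted p = 3.23e-05), from between 8.41 and 8.81 in vehicle to between 6.39 and 7.18 in doxycycline tumours. DDIT4, an inhibitor of mTORC1 that hypoxia also induces, fell by 2.51 (adjusted p = 0.00183). EIF4EBP1, a repressor of translation, fell by 0.88 (adjusted p = 0.00194), and the isoleucyl-tRNA synthetase gene IARS1 fell by 0.86 (adjusted p = 0.0038). The 4 that rose were the leucine sensor gene SESN2, by 0.70, the autophagy gene MAP1LC3B, by 0.70, KLHL24, by 0.51, and the stress cytokine gene GDF15, by 0.87 (adjusted p = 0.00811, 0.0154, 0.0377 and 0.0493). The other 19 of these 32 targets did not pass, and those that passed went both ways.

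Of 15 genes for eIF2, its exchange factor eIF2B and their regulators, 0 passed with limma (4 had an unadjusted p under 0.05), and the median change was 0.01. Of 14 genes of the other branches of the endoplasmic reticulum stress response, 2 rose and 1 fell. The chaperone gene DNAJB9 and the ubiquitin ligase gene SYVN1 rose by 0.99 and 0.63 (adjusted p = 0.00287 and 0.00595), and PDIA4, a protein disulfide isomerase gene, fell by 0.54 (adjusted p = 0.0262).

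Among 34 further amino acid transporter genes 3 fell and 5 rose. SLC6A15, a carrier of branched-chain amino acids and proline, fell by 1.49 (limma, adjusted p = 0.000116), the taurine transporter gene SLC6A6 fell by 1.43 (adjusted p = 0.000971), SLC43A3, a relative of LAT3 that carries nucleobases, fell by 0.78 (adjusted p = 0.00541), and SLC6A9, a glycine transporter gene, rose by 1.01 (adjusted p = 0.00262). The other 4 that rose, named after their values were seen, were the mitochondrial carrier genes SLC25A38 and SLC25A44, by 0.55 and 0.81 (adjusted p = 0.0109 and 0.0468), and the lysosomal exporter genes SLC66A1 and CTNS, by 0.59 and 0.58 (adjusted p = 0.0408 and 0.0299). The median change of these 34 genes was -0.04, and 16 of them were among the dimmest 30% of all genes.

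Of 16 other amino acid enzymes 4 fell and 0 rose. ASS1, which makes argininosuccinate on the way to arginine, was at 6.33, 6.70, 6.66, 6.35 and 6.03 in vehicle and at 4.34, 3.59, 4.14, 3.01 and 3.30 in doxycycline tumours. It fell by 2.74 (limma, adjusted p = 4.37e-05), more than any of the 38 genes above. GCLC, the rate-limiting enzyme of glutathione synthesis, which uses the cysteine that xCT brings in as cystine, fell by 1.57 (adjusted p = 0.001). Glutamate dehydrogenase, GLUD1, fell by 0.51 (adjusted p = 0.00967), and the mitochondrial arginase gene ARG2 fell by 0.82 (adjusted p = 0.0209).

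Of 24 genes for the sensing of amino acids by mTORC1, 4 fell and 1 rose, with a median change of 0.12. SESN1, a relative of SESN2 that is also a p53 target, rose by 1.35 (limma, adjusted p = 0.00258). SEH1L, MLST8 and WDR59, subunits of the GATOR2 complex or of mTORC1, fell by 0.80, 0.57 and 0.86 (adjusted p = 0.00479, 0.00834 and 0.0169).

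**Figure D4:**
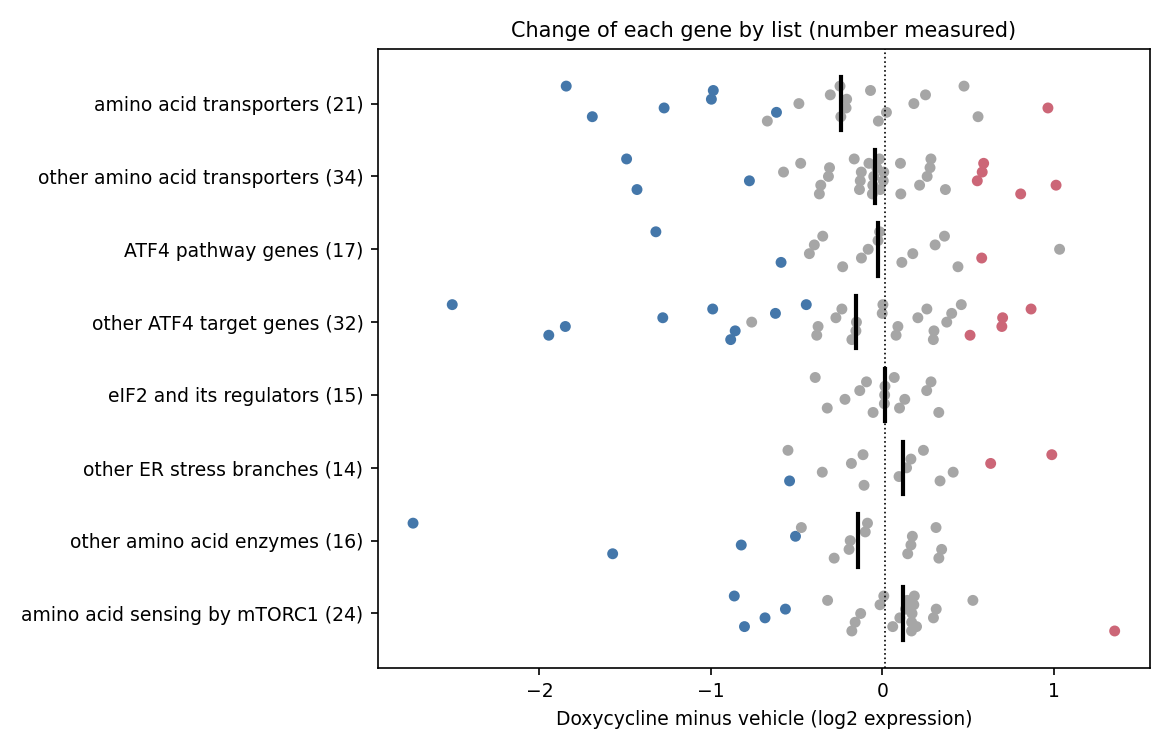
Change of each gene, doxycycline minus vehicle in log2 expression, in 8 gene lists with the number measured in brackets. Blue points passed the threshold as lower and red points as higher, black bars are list medians (-0.24 for the transporters, -0.03 for the ATF4 pathway genes), and the dotted line is the median of all genes, 0.02.

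Other genes moved along with these changes. Of 11 measured hypoxia-response genes 9 fell, with a median change of -1.46, and the mean over the list was 8.70 to 9.31 in vehicle and 7.17 to 8.35 in doxycycline tumours. Of 12 macrophage markers 2 rose, LYZ by 1.28 and CD14 by 0.79 (limma, adjusted p = 0.000384 and 0.0244), or 16.7% against 11.0% of all genes. The 12 markers went both ways, 7 above 0 and 5 below, with a median change of 0.09. Their list mean was 4.30 to 4.47 in vehicle and 4.46 to 4.84 in doxycycline tumours, highest in doxycycline tumours 4 and 5. Of 8 fibroblast and pericyte markers 0 passed (limma, 5 with an unadjusted p under 0.05), with a median change of -0.51. Those 5 went both ways, with COL1A2 and ACTA2 at 0.40 and 0.52 and COL1A1, LUM and PDGFRB at -0.58, -0.96 and -0.57. Relative to the vehicle mean, the list mean was -0.18 to 0.17 in vehicle and -0.46 to -0.13 in doxycycline tumours. Endothelial markers and markers of T and B cells had 0 of 8 and 0 of 7 past the threshold (limma, 1 each with an unadjusted p under 0.05), with list means of 3.80 to 4.29 against 3.75 to 4.51 and of 3.31 to 3.80 against 3.36 to 3.44. These tumours grew in mice, so host cells there carry mouse genes, whereas the probe sets are those of human genes. The macrophage, fibroblast, endothelial and lymphocyte lists are therefore no direct measure of host cells. The part of host cells and of hypoxia in the changes above was not tested.

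**Figure D5:**
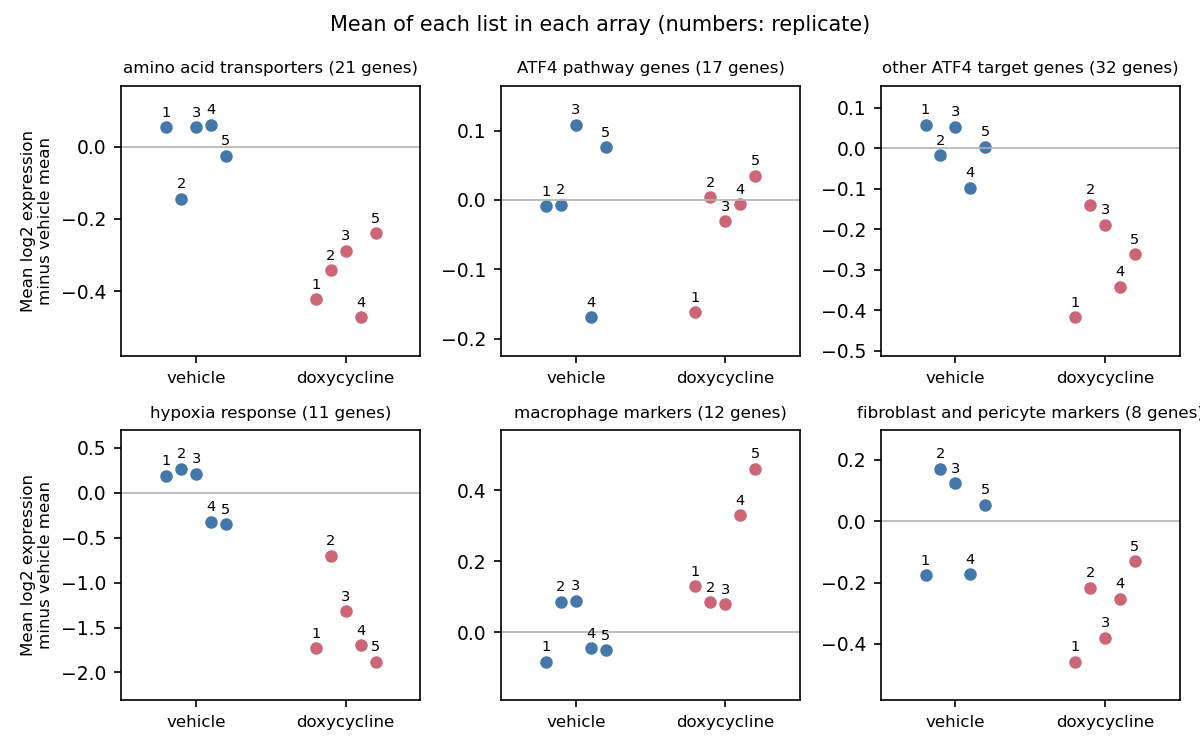
Mean log2 expression of 6 gene lists in each array minus the mean of the vehicle group, with replicate numbers beside the points (blue vehicle, red doxycycline) and a different scale in each panel. The transporter means lie at -0.24 to -0.47 in the doxycycline tumours, below all vehicle tumours, whereas the ATF4 pathway means overlap between the groups.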

How the data were processed

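Total RNA of 5 vehicle and 5 doxycycline A375 tumours was labelled with biotin and hybridised to Affymetrix arrays, per the labels. The deposited values are log2 expression values made by the authors, and the submitters' processing notes name RMA. Its version is not given in the sources used here, nor is a build. RMA equalises the distributions of the arrays, so a change common to most genes would not show. Of 18569 probe sets, 17511 carried 1 gene symbol in the platform annotation, 0 several and 1058 none. All 17511 Entrez identifiers matched the RefSeq gene table. Where a gene had several probe sets (17 genes), the brightest on average was kept, which left 17492 genes.

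A linear model with 1 term for the group was fitted to all 10 arrays (limma 3.58.1, R 4.3.3), with eBayes moderation, two-sided p-values and a threshold of 0.05 on p adjusted by Benjamini-Hochberg over the 17492 genes. The changes of 12 pairs of genes were compared within arrays by exact permutation over all 252 splits. Each pair, chosen after the values were seen, set a gene that passed against a gene that did not. These p-values describe the chosen pairs and are no separate support for the calls. The fit was tested on simulated data. The genes and lists were chosen with earlier results of these data known. Genes that passed the threshold or whose groups did not overlap are given by array, and of each further list at most the 4 with the smallest p are named, beside those a statement turns on.

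Replicate numbers are shared by the groups, but they were not taken as pairs in the main fit. Alternatives were a replicate block, other variance moderation, array weights, other scaling, removal of the dimmest 30% of genes, other handling of probe sets, a stroma covariate, a minimum change of 1.5-fold, and each array left out. Leaving out doxycycline arrays 4 and 5 together was chosen after seeing the data. No detection calls were used, and the number of arrays limits the precision.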

Additional observations from a re-analysis of the deposited data

Results flagged for a closer look

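In 8 of the 76 groups of 5 arrays tested (38 genes in 2 groups), 1 array stood apart from the other 4, where chance gives about 1 group in 20. SLC38A1 was highest in vehicle array 4, at 8.18 against 7.85 to 7.89 in the others. SLC43A1 was lowest in vehicle array 1, at 5.47 against 5.72 in the others, which lay very close together. SLC7A8 was lowest in vehicle array 2, at 4.87 against 5.45 to 5.62, and GOT1 was lowest in the same array, at 7.34 against 7.81 to 7.91. ATF3 was highest there, at 5.95 against 4.82 to 5.14. SLC38A7 was lowest in vehicle array 5, at 3.05 against 3.84 to 4.02. In the doxycycline group, GOT1 was highest in array 5, at 8.34 against 7.76 to 7.92, and EIF2AK3 was lowest in array 1, at 5.24 against 5.90 to 6.11. Of the genes that passed the threshold, SLC38A1 alone is among these, and it kept its call without that array.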

How the results depend on the processing

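Of the 10 called genes, 7 kept their calls under all 23 alternatives. SLC1A5 and SLC43A2 lost theirs without doxycycline arrays 4 and 5, SLC43A2 with the unmoderated test, and EIF2AK4, at 1.49-fold, with a minimum of 1.5-fold. No called gene changed sign. The counts of lower genes stayed within 1.5 times, at 6 to 7 transporters and 2 ATF4 pathway genes with each array left out. The count of higher transporters, 1, was 2 with a trended prior variance, with medians centred, after quantile normalization was repeated, without the dimmest 30% of genes or with the stroma covariate (SLC38A9 joining), 0 with the unmoderated test and 0 without doxycycline arrays 4 and 5, and 1 to 2 with each array left out. The count of higher ATF4 pathway genes, 1, was 2 with a trended prior variance, removal of the dimmest 30% or the stroma covariate (CHAC1 joining), 0 with a minimum of 1.5-fold, and 1 to 2 with each array left out. Over all genes, 578 in place of 880 were higher with the unmoderated test, and 595 to 908 with each array left out. The stroma score averaged 0.02 in the doxycycline and 0.00 in the vehicle group. It also rests on human probe sets in tumours grown in mice, so for both reasons this covariate says little on stroma. Of the 28 uncalled genes 6 passed in at least 1 alternative: SLC38A9, CHAC1, SLC38A2, SLC7A2, ATF4 and TRIB3. Of the 38 genes, 33 remained after removal of the dimmest 30%.

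With the replicate number as a block, 1641 of all genes were called in place of 1921, and the counts among transporters (1 higher, 6 lower) and ATF4 pathway genes (1 higher, 2 lower) were as without it. Same-numbered tumours deviated together with correlations of -0.063 to 0.191, and 2 of the 5 vehicle tumours correlated best with their own number.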
